A study of Mus musculus with 6 samples.

Results

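Retinal, the aldehyde of vitamin A, is oxidised to retinoic acid by retinaldehyde dehydrogenases, and retinoic acid then acts through nuclear receptors. The genes described here are 4 dehydrogenases of the Aldh1a family (Aldh1a1, Aldh1a2, Aldh1a3 and Aldh1a7), the receptors Rara and Rarb, the retinol carrier Rbp4, its receptor Stra6 and the intracellular carrier Crabp2. They were compared between the kidneys of LPR mice and MRL mice by every array probe that carries their name. Of the 9 genes, 8 had such a probe, with 14 probes in all among the 56605 probes and 36870 gene names of the array, and 11 of the 14 were bright enough to be tested. Crabp2 was not analysed here. Aldh1a1 and Aldh1a7 were chosen by their lower signal in LPR mice on these same arrays, so their values are given as a description, with no test.

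LPR mice carry the lpr mutation of the death receptor gene Fas on both alleles (MRL/MpJ-Fas lpr/lpr) and develop lupus nephritis. MRL mice (MRL/MpJ) share the background strain without the mutation and served as controls. All mice were females of 6 months of age with no treatment named, and each of the 3 mice per group gave whole-kidney RNA for 1 single-colour array. In such RNA, fewer cells of a type and less RNA per cell cannot be told apart.

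Retinol reaches the kidney in plasma bound to Rbp4 and transthyretin, and the proximal tubule takes up the filtered part through the receptor megalin. In cells, retinol is stored as esters or oxidised to retinal and then to retinoic acid, which binds carriers, activates heterodimers of RAR and RXR receptors, and is broken down by Cyp26 enzymes. In the developing kidney, retinoic acid made by Aldh1a2 in the stroma is known to maintain Ret in the ureteric bud. Aldh1a1 is a widely expressed cytosolic enzyme. Aldh1a7 is a rodent duplicate of Aldh1a1 and is known for little or no activity on retinal.

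The sequences of this pair are shown first, because both genes were lower in LPR mice and a shared probe sequence could blur them. The genes are neighbours on chromosome 19, with 49490 bases between the end of Aldh1a1 and the start of Aldh1a7 in GRCm38.p6. The Aldh1a1 probe (A_51_P334942, for NM_013467) was placed by the array annotation at chr19:20717764-20717823 and the Aldh1a7 probe (A_51_P383399, for NM_011921) at chr19:20767553-20767612, both in mm9. Where in the transcripts the probes lie was not analysed here. The first 30 of the 60 bases of each probe read as follows.
Aldh1a1: gactagttgtgacttaagctctgtccctca
Aldh1a7: ttccttgaactatgtaccatgcatgataac
The longest run of letters that the 60-base probes share is 8 bases. Each gene rests on a single probe.

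RefSeq promoter sequences of GRCm38.p6, from 250 bases before to 50 bases after a transcript start, were found for 7 of the 9 genes. Aldh1a1 at chr19:20601718-20602017 (plus strand) and Aldh1a7 at chr19:20727507-20727806 (minus strand) aligned over 278 bases, of which 233, or 83.8%, were identical. Another promoter of Aldh1a1 in the table was less like that of Aldh1a7 (78.7% of 244 aligned bases, with 112 gap bases), and the Aldh1a1 promoters matched each other at 71.3% of aligned bases. The closest pair is shown, and no baseline over other genes was computed. Capitals mark the bases that had no identical partner in the alignment.
Aldh1a1: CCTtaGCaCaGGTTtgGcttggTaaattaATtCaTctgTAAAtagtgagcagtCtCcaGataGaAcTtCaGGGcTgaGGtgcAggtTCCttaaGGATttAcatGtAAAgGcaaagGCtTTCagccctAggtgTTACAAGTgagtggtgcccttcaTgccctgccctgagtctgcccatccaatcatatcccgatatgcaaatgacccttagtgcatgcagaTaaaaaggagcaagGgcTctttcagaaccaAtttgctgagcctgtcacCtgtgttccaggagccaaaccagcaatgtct
Aldh1a7: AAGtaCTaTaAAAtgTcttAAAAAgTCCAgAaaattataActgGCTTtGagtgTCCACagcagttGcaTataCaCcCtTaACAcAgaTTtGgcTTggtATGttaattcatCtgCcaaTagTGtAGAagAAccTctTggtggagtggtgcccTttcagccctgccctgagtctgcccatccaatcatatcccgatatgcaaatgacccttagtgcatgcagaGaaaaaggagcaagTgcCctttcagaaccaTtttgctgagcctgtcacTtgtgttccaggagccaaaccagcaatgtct
Of the 67 capitals in each sequence, 6 lie in its last 150 bases. In this pair most differences lay upstream of the last 150 bases.

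For the receptors, the Rarb promoter is shown because Rarb is known for a retinoic acid response element of its own. That element is of the DR5 kind, a direct repeat of the receptor recognition site with a spacer of 5 bases. Searched on both strands, it was found in the Rarb promoter at chr14:16575427-16575726 (minus strand, GRCm38.p6), starting at position -53 from the transcript start, and is given in capitals.
Rarb: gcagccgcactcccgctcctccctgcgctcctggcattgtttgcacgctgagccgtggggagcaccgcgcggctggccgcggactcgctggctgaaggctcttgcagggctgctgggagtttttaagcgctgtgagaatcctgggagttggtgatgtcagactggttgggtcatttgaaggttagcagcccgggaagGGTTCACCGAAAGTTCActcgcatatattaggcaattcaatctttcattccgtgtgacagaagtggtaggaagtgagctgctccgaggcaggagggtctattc
Across all 32851 promoters of that length, 32 (0.0974%) held a DR5 element by these letters. A direct repeat with a spacer of 2 bases (DR2), present in 88 promoters (0.268%), was found in no promoter of the genes described here. The single site AGGTCA, present in 16.3% of all promoters, was found in Rara alone among these genes. The letters TATAAA, present in 13.6%, were found in Rbp4 at position -28 and in Aldh1a7 at position -244. These matches describe letters and not binding.

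Arrays of the same group correlated closely, but the array of LPR mouse 1 was brighter. Its 75th percentile of intensity was 930, beside 730 and 751 in LPR mice 2 and 3 and 700 to 727 in MRL mice. Correlations between arrays were 0.990 to 0.993 within a group and 0.961 to 0.971 between groups, 69.6% to 73.5% of spots were well above background, and no spot was saturated. Levels are given as log2 of the signal over the 75th percentile of the array, so that 0 is the signal of a rather bright probe. Testing required a signal well above background on 3 or more of the 6 arrays, which left 39924 probes for 25805 genes. Of these probes, 6.07% fell and 6.54% rose. The median change of all tested probes was -0.13, and 67.2% of genes had a negative change. Fas itself did not settle the genotype: 1 probe changed by -0.47 (adjusted p = 0.235, limma), and another was well above background in LPR mice only. Where these probes lie relative to the lpr insertion was not analysed here.

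Cell type markers also differed, and their part in the results below was not tested. Summed over 8 leukocyte markers, the level (signal over the 75th percentile, linear) was 16.4 to 19.6 in MRL mice and 34.3 to 37.5 in LPR mice, and 7 of the 8 genes rose. Over 4 fibroblast markers it was 14.0 to 15.1 in MRL mice and 24.2 to 27.7 in LPR mice, with rises of Col1a1 and Dcn. Over 7 proximal tubule markers it was 734 to 787 in MRL mice and 558 to 609 in LPR mice, and Lrp2 and Slc5a2 fell. The 4 adipose markers summed to 3.93 to 6.00 in MRL mice and to 2.84, 2.81 and 0.340 in LPR mice 1, 2 and 3, and Ucp1 fell. Ucp1 was well above background in 1 LPR mouse and Plin1 in 2.

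**Figure D1:**
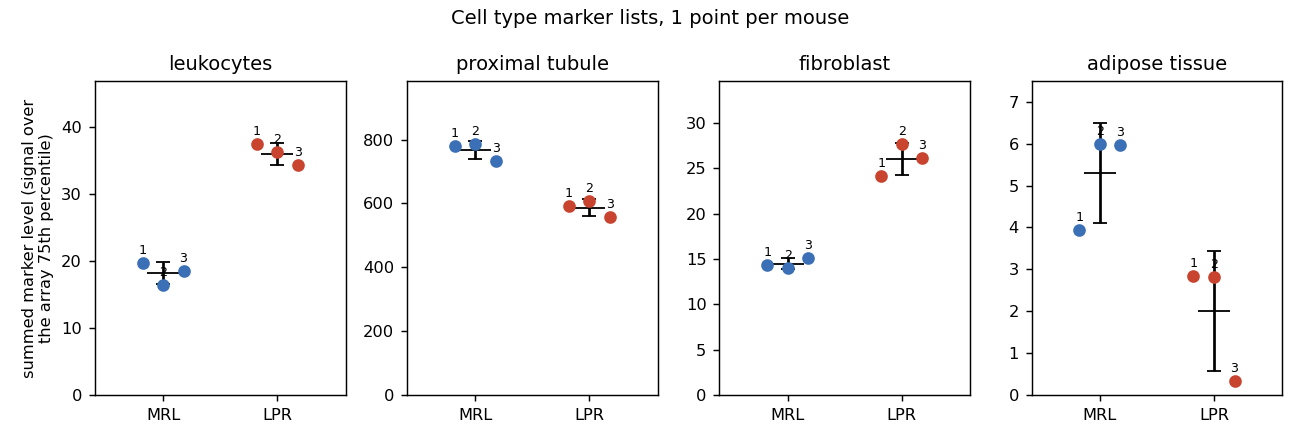
Summed level of the markers of leukocytes, proximal tubule, fibroblasts and adipose tissue in each mouse, as the sum of linear signals over the 75th percentile of the array, with points numbered by mouse, the group mean and the SD (n = 3). In each of these lists the groups do not overlap, and LPR mouse 3 has the lowest adipose sum, 0.340.

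For the remaining lists, sums over 4 thick limb and distal tubule markers were 302 to 334 in MRL mice and 253 to 269 in LPR mice. Collecting duct sums overlapped (27.1 to 33.8 and 26.4 to 33.9), and so did podocyte sums (16.0 to 18.5 and 17.4 to 22.4). Mesothelial sums, of interest because mesothelium is a known site of Aldh1a2, were 0.868 to 0.919 in MRL mice and 0.492 to 0.853 in LPR mice. Adrenal cortex sums were 0.429 to 0.483 and 0.371 to 0.440, with 4 of its 7 markers bright enough to be tested.

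Aldh1a1 was bright and nearly constant in MRL mice, with levels of 3.88, 3.91 and 3.92, and lay at 2.29, 2.56 and 2.95 in LPR mice. The groups did not overlap, and the nearest mice were 0.93 apart. All LPR mice lay below all MRL mice in 25.4% of the 25805 genes and above them in 11.8%. Mean levels of 3.90 ± 0.02 and 2.60 ± 0.33 (SD, n = 3 each) were obtained for MRL and LPR mice. The difference of -1.30 (SE 0.17) made Aldh1a1 2.47-fold lower in LPR mice. Its change ranked 126 among the falls of 25805 genes, as the choice of this gene implies.

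Aldh1a7 stood at 1.30, 0.84 and 1.15 in MRL mice and at -1.05, -1.18 and -0.62 in LPR mice. Every LPR mouse was below every MRL mouse, and the nearest mice were 1.47 apart. Means of 1.10 ± 0.23 (SD, n = 3) and -0.95 ± 0.29 (SD, n = 3) gave a difference of -2.05 (SE 0.19), which is 4.14-fold lower in LPR mice and ranked 23 among the falls. In both genes LPR mouse 3 had the highest level of its group. The proximal tubule sums of LPR mice 1, 2 and 3 were 592, 609 and 558. This sum was 1.31-fold lower in LPR mice by the ratio of group means, and its part in the falls was not tested.

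Position on the slide is given as a description. All 6 arrays shared 1 slide, and its upper row held the 3 MRL mice and LPR mouse 1. Within that row, LPR mouse 1 differed from the mean of the MRL mice by -1.62 in Aldh1a1 and -2.15 in Aldh1a7. Within the slide columns, LPR mouse 2 differed from MRL mouse 1 by -1.31 and -2.48, and LPR mouse 3 from MRL mouse 2 by -0.97 and -1.47. Fits below with the slide row as a block rest on LPR mouse 1 against the MRL mice. Those with the slide column rest on these pairs within columns. Relative to the median change of all probes, the group differences of Aldh1a1 and Aldh1a7 were -1.17 and -1.91.

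Aldh1a2 makes retinoic acid in stromal cells and in mesothelium. It rose in LPR mice, from 1.18, 1.07 and 1.14 to 1.70, 2.09 and 1.61. The groups did not overlap, with the nearest mice 0.43 apart. Mean levels were 1.13 ± 0.05 (SD, n = 3) and 1.80 ± 0.25 (SD, n = 3), and the difference of 0.67 (SE 0.15) was a 1.59-fold rise (adjusted p = 0.0295, limma over all tested probes). LPR mouse 2, the highest in Aldh1a2, also had the highest fibroblast sum, 27.7. The order of the other LPR mice differed: mouse 3 had the lower Aldh1a2 but a sum of 26.2, and mouse 1 a sum of 24.2. A link between them was not tested.

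The rise of Aldh1a2 was near the threshold. Without MRL mouse 1 the change was 0.69 (adjusted p = 0.0772), without MRL mouse 2 it was 0.64 (adjusted p = 0.0975), without MRL mouse 3 it was 0.67 (adjusted p = 0.0853), and without LPR mouse 1 it was 0.72 (adjusted p = 0.0565). Within the upper slide row the change was 0.57 and within the columns 0.91 and 0.54. Because the groups did not overlap, no position could have given the other direction. With the slide row as a block the change was again that of LPR mouse 1 against the MRL mice, 0.57. With the slide column it was the mean of the values within columns, 0.72 (adjusted p = 0.0851, limma). With the replicate number as a block it was 0.67 (adjusted p = 0.0681, limma).

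Aldh1a3, the retinaldehyde dehydrogenase known from epithelia, varied more between mice. Its brightest probe (A_52_P87843) was at -0.07, 0.26 and 0.03 in MRL mice and at -0.27, -0.57 and -2.09 in LPR mice. The groups did not overlap, and LPR mouse 3, the mouse with the lowest adipose sum, stood far below the others. The difference of -1.05 (SE 0.45, 95% interval -2.11 to 0.01) did not pass the test (adjusted p = 0.167), and without LPR mouse 3 it was -0.49. With the slide row as a block, which leaves LPR mouse 1 against the MRL mice, it was -0.34. A dimmer probe of Aldh1a3 (A_52_P113518) was well above background in 2 of 3 mice of each group and differed by -0.49 (adjusted p = 0.537). The last Aldh1a3 probe (A_55_P2596848) was well above background in no mouse and was not tested.

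**Figure D2:**
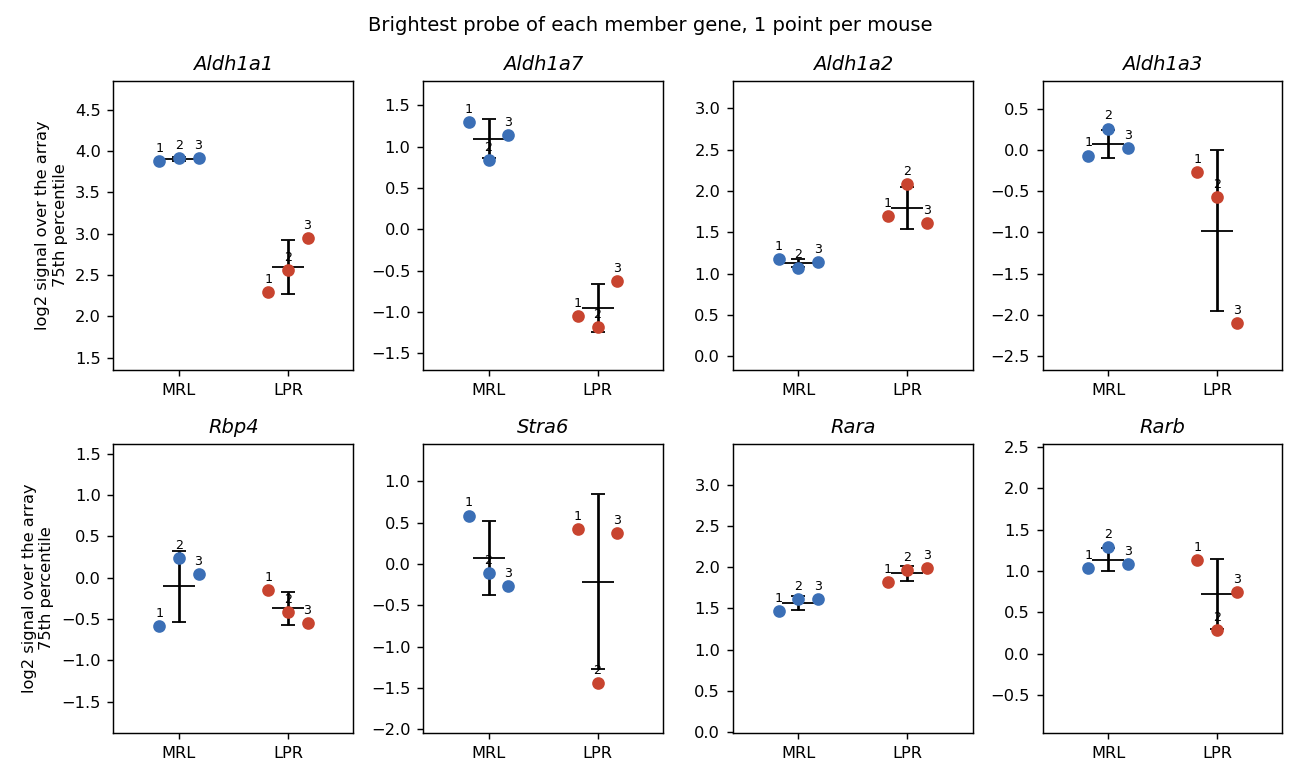
Level of the brightest probe of the 8 genes with a probe in each mouse, as log2 signal over the 75th percentile of the array, with points numbered by mouse, the group mean and the SD (n = 3). The vertical axes span the same range, so that the distance between groups can be compared across genes: Aldh1a7 differs by -2.05, Aldh1a1 by -1.30 and Aldh1a2 by 0.67.

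Of the 6 tested genes that were not chosen for their fall, 1 rose (Aldh1a2) and 5 did not pass, among 25805 genes of which 7.12% rose and 5.39% fell. So few genes cannot be set apart from that background.

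Rara, the receptor for retinoic acid that most tissues express, was slightly higher in LPR mice by both of its probes. The brighter probe (A_55_P2095345) stood at 1.47, 1.61 and 1.62 in MRL mice and 1.82, 1.97 and 1.99 in LPR mice, with no overlap. The difference of 0.36 (SE 0.11, 95% interval 0.11 to 0.61) did not pass after adjustment (adjusted p = 0.0746). The second probe (A_55_P2095342) differed by 0.42 (adjusted p = 0.0900). In 18 of 22 alternatives the brighter probe again did not pass, and its change ran from 0.25 to 0.44 over all 22. The brighter probe passed with normexp background correction (adjusted p = 0.0287), quantile normalization (adjusted p = 0.0373) and an intensity trend in limma (adjusted p = 0.0349). It also passed with the methods' t test before adjustment. Relative to the median change of all probes, which was chosen as a scale after seeing the data, its difference was 0.49 and passed (adjusted p = 0.0316).

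Rarb, the receptor with the DR5 element shown above, had levels of 1.03, 1.29 and 1.09 in MRL mice and 1.13, 0.29 and 0.74 in LPR mice by its brightest probe (A_51_P202440). LPR mouse 1 lay within the MRL range and the other LPR mice below it. The difference was -0.42 (SE 0.21, 95% interval -0.92 to 0.09, adjusted p = 0.241), which became -0.20 without LPR mouse 2 and -0.0045 with the slide row as a block. A second probe (A_55_P2730981) gave -0.40 (adjusted p = 0.276) with the same order of the LPR mice. Of the remaining Rarb probes, A_55_P2099585 was well above background in 1 LPR mouse and A_65_P00940 in no mouse.

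**Figure D3:**
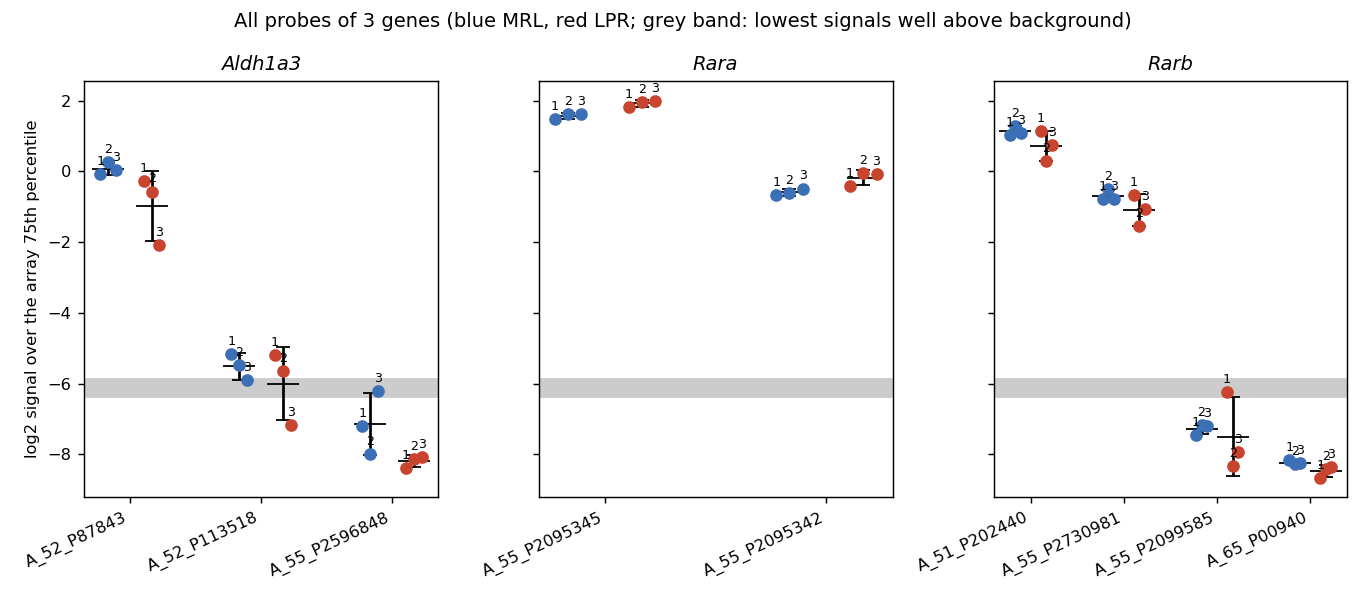
Level of every probe of Aldh1a3, Rara and Rarb in each mouse (MRL in blue, LPR in red, numbered by mouse, with mean and SD, n = 3), as log2 signal over the 75th percentile of the array. The grey band spans the lowest signals counted as well above background on the 6 arrays, and both Rara probes and the brighter Rarb pair lie well above it, while the dimmest probes lie at or below it. The height of different probes does not compare amounts of transcript.

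Rbp4, which carries retinol in plasma, overlapped between the groups, with levels of -0.59, 0.23 and 0.05 in MRL mice and -0.15, -0.41 and -0.55 in LPR mice. Its difference was -0.27 (SE 0.23, 95% interval -0.81 to 0.27, adjusted p = 0.454), and it ran from -0.51 without MRL mouse 1 to -0.10 without MRL mouse 2. Stra6, the membrane receptor that takes retinol from Rbp4, varied more than any other gene described here. It stood at 0.59, -0.11 and -0.26 in MRL mice and at 0.43, -1.44 and 0.37 in LPR mice, so that LPR mouse 2 stood apart. The difference of -0.29 (SE 0.51, 95% interval -1.51 to 0.94, adjusted p = 0.738) became 0.33 without LPR mouse 2 and -0.028 without MRL mouse 1. The intervals of Rbp4 and Stra6 leave room for changes in either direction.

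The wider pathway was read from lists arranged by role. Without Aldh1a1 and Aldh1a7, 55 pathway genes were on the array and 45 were tested, of which 8 rose, 5 fell and 32 did not pass, beside 7.12% and 5.39% over all genes. Without Ret and Rdh7, each well above background in 1 group only, 7 rose and 4 fell. Their median change was -0.16, beside -0.12 over all genes. With the median shift of all probes removed, 3 fell. The other genes follow by role, with the mice whose removal ended a call. Lists of a single role are too short to be set apart from the shares over all genes.

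Among genes of retinol supply and transport, 2 of 8 tested genes rose, 2 fell and 4 did not pass. The shares over all genes were 7.12% higher and 5.39% lower. Ttr, the plasma partner of Rbp4, stood at -2.57, -2.43 and -1.72 in MRL mice and -3.64, -3.13 and -4.13 in LPR mice, a change of -1.39 (SE 0.31, adjusted p = 0.0318). A second Ttr probe was well above background in no mouse. Lrp2 encodes megalin, the tubular receptor through which filtered Rbp4 is taken up, and is also a marker of the proximal tubule list above. Its brightest probe fell from 7.17 ± 0.07 to 6.78 ± 0.07 (SD, n = 3), a change of -0.39 (SE 0.10, adjusted p = 0.0497), and 4 other probes gave -0.39 to -0.67 without passing.

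Stra6l, a receptor for Rbp4 related to Stra6, rose instead, from 0.44, 0.08 and -0.26 to 0.90, 0.82 and 0.96. The change was 0.81 (SE 0.18, adjusted p = 0.0322), and its second probe gave 0.84 (adjusted p = 0.0456). Rbp3, known as a retinoid carrier of the retina, rose from 1.76, 1.79 and 1.67 to 2.33, 3.32 and 3.25, a change of 1.22 (SE 0.26, adjusted p = 0.0276). Lrp2 lost its call without any 1 of the 6 mice (changes of -0.42 to -0.36), Ttr without each mouse but LPR mouse 2 (-1.64 to -1.13), Stra6l without each but MRL mouse 1 (0.64 to 0.98) and Rbp3 without each but LPR mouse 1 (1.05 to 1.54).

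Of 4 tested genes of retinoid storage and carotenoid cleavage, 1 fell and 3 did not pass, beside 5.39% lower over all genes. Bco2, a mitochondrial enzyme that cleaves carotenoids, went from -1.61 ± 0.05 to -2.14 ± 0.13 (SD, n = 3), with no overlap. The change of -0.53 (SE 0.11, adjusted p = 0.0249) lost its call without each mouse but LPR mouse 2 (-0.60 to -0.47). Lrat and Rpe65 were too dim to be tested.

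Among the enzymes that convert retinol and retinal into each other, 2 of 15 fell and 13 did not pass. The share over all genes was 5.39% lower. Without Rdh7, which passed the filter through MRL mice only, 1 fell. Both genes that fell are short-chain dehydrogenases on chromosome 10. Rdh1, Rdh5 and Rdh9 of the same list also lie on chromosome 10 and did not pass. Rdh16 was at 3.21, 3.07 and 3.25 in MRL mice and at 2.34, 2.52 and 2.44 in LPR mice, with little spread in either group. The change of -0.74 (SE 0.11, adjusted p = 0.0059) was a 1.67-fold fall. It kept its call with each mouse left out and lost it with the slide column as a block (-0.66, adjusted p = 0.0924). Rdh7, a close relative, was well above background in all MRL mice and in no LPR mouse. Against the lowest signal well above background, Rdh7 was at least 1.93-fold lower in LPR mice. It entered the test only through the group where it was brighter, so its call is no support for a fall. The bound holds for the main background treatment only, and with normexp background correction the change was -0.33. Near-identical relatives of this family could share probe signal, which was not analysed here. The other enzymes of the step, such as Rdh10 (0.02, adjusted p = 0.897), Dhrs3 (-0.22, adjusted p = 0.279) and Adh1 (-0.16, adjusted p = 0.369), did not pass, and the median of the 15 was -0.20.

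Past the dehydrogenases, the last oxidation step also holds Aldh8a1, an enzyme of 9-cis-retinal, which differed by -0.25 (adjusted p = 0.163). Of the carriers within the cell, Fabp5 was tested and rose. Fabp5 binds fatty acids and retinoic acid and is also known from macrophages. Its levels were 1.95, 2.07 and 2.11 in MRL mice and 3.15, 3.07 and 2.85 in LPR mice, and the 1.97-fold rise (0.98, SE 0.12, adjusted p = 0.0026) kept its call in each of the 22 alternatives. It rose beside the leukocyte markers, whose part was not tested. Crabp1 was well above background in 1 MRL mouse and was not tested.

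Among the 6 receptors, Rxrg rose and the others did not pass, beside 7.12% higher over all genes. Rxrg, a partner receptor known mainly from muscle and nerve tissue, went from -2.35, -1.95 and -2.13 to -0.81, -1.28 and -1.31, with every LPR mouse above every MRL mouse. This was a 2.01-fold rise (1.01, SE 0.18, adjusted p = 0.0135). It kept its call with each mouse left out and lost it with the slide column (0.85, adjusted p = 0.0560) or the replicate number (1.01, adjusted p = 0.0530) as a block. Rxra, the partner receptor of most tissues, differed by 0.02 (adjusted p = 0.922) and Rxrb by 0.16 (adjusted p = 0.487). Rarg differed by 0.28 (adjusted p = 0.145) by its brightest probe and by -0.57 (adjusted p = 0.0847) by a dimmer one, so its probes disagreed in sign. A second probe of Rxra gave -0.41 (adjusted p = 0.179), also against its brightest probe.

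Of the enzymes that break down retinoic acid, Cyp26b1 was tested. It stood at 0.46, 1.91 and 1.07 in MRL mice and 0.27, -0.51 and 0.72 in LPR mice. The groups overlapped, and the difference of -0.99 (SE 0.43, 95% interval -2.01 to 0.03) did not pass (adjusted p = 0.177). Without MRL mouse 2 it was -0.61 and without LPR mouse 2 -0.65, and with the slide column as a block it passed (-1.08, adjusted p = 0.0179). Cyp26a1, a known direct target of retinoic acid, was well above background in 1 LPR mouse, and Cyp26c1 in no mouse.

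Of 7 tested genes known to respond to retinoic acid, 3 rose and 4 did not pass, beside 7.12% higher over all genes. So few genes cannot be set apart from that share. Without Ret, which passed the filter through LPR mice only, 2 rose. Cd38, an enzyme on the surface of leukocytes and other cells that consumes NAD, went from -2.23, -1.96 and -2.12 to -0.95, -1.27 and -0.93. That 2.07-fold rise (1.05, SE 0.14, adjusted p = 0.0038) kept its call in each of the 22 alternatives. Rarres2, the precursor of the chemoattractant chemerin, went from 1.76, 1.98 and 2.18 to 2.45, 2.72 and 2.59. Its change was 0.61 (SE 0.14, adjusted p = 0.0358) and lost its call without each mouse but MRL mouse 3 (0.51 to 0.72). Ret, the receptor tyrosine kinase of the ureteric bud, was well above background in no MRL mouse and in all LPR mice.

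Against the lowest signal well above background, Ret was thus at least 1.97-fold higher. It too entered the test only through the group where it was brighter, so its call is no support for a rise. Ret lost its call without each mouse but LPR mouse 2 (0.89 to 1.47). The bound holds for the main background treatment only, and with normexp background correction the change was 0.16. Cd38 and Rarres2 have known roles in leukocytes and in their recruitment. They rose beside the leukocyte markers, whose part was not tested. Stra8, Hoxb1 and Cdx1 were too dim to be tested.

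**Figure D4:**
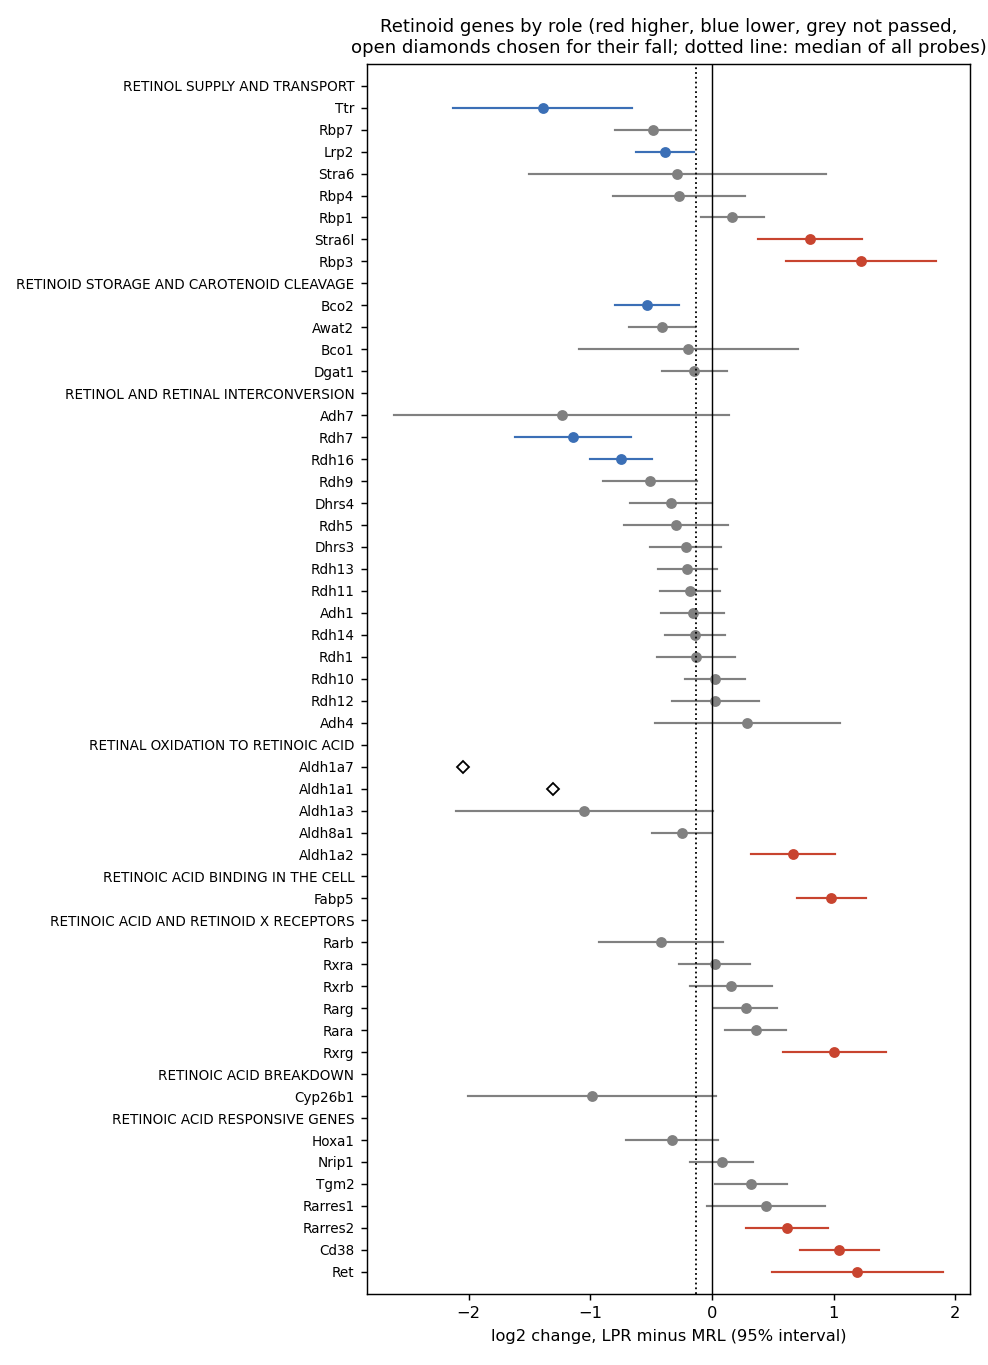
Log2 change (LPR minus MRL) of the brightest tested probe of each retinoid pathway gene by role, with 95% intervals (3 mice per group). Red marks genes that rose, blue genes that fell and grey genes that did not pass; open diamonds mark Aldh1a1 and Aldh1a7, chosen for their fall, without an interval. The dotted line is the median change of all tested probes, -0.13, and most enzymes of the retinol and retinal step lie near it.

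Other aldehyde dehydrogenases were read beside the pair. Of 16 further family members tested, 2 fell, 1 rose and 13 did not pass, beside shares of 5.39% lower and 7.12% higher over all genes. Their median change was -0.20, beside -0.12 over all genes. Aldh1l1, a folate enzyme, fell from 6.34, 6.36 and 6.39 to 5.67, 5.91 and 5.73 (-0.59, adjusted p = 0.0145). Aldh5a1, an enzyme of GABA breakdown, fell from 1.94, 1.94 and 1.89 to 1.56, 1.34 and 1.17 (-0.57, adjusted p = 0.0306).

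Aldh18a1, which makes a precursor of proline, rose from -2.55, -2.72 and -2.61 to -1.74, -1.27 and -1.53 (1.12, SE 0.14, adjusted p = 0.0033) and kept its call in each of the 22 alternatives. Aldh1l1 lost its call without MRL mouse 2, MRL mouse 3 or LPR mouse 3 (changes of -0.66 to -0.54 with each mouse left out). Aldh5a1 lost it without each mouse but LPR mouse 1 (-0.67 to -0.48).

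Likeness to the pattern of each gene of the pair was measured as the root mean square difference of the 6 array values, each probe centred on its own mean, over 23323 genes well above background on all arrays. Because the pair was chosen for its fall, the list is a description. Nearest to Aldh1a1 were the transcript ENSMUST00000099684 (0.104), Pck1 (0.115), Trpv5 (0.133), Lrrc14b (0.163) and Esm1 (0.165). Pck1, a gluconeogenic enzyme of the proximal tubule, differed by -1.45 between the groups, and Trpv5, a calcium channel of the distal tubule, by -1.20.

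Nearest to Aldh1a7 were a pair of probes for a long noncoding RNA region on chromosome 5 (0.280 and 0.299), Slc26a10 (0.285), AK047643 (0.311) and Esm1 (0.326). Esm1, a secreted product of endothelium, was thus among the nearest 5 of both genes, with a difference of -1.59. Aldh1a1 and Aldh1a7 themselves were 0.415 apart, and Aldh1a7 ranked 763 of 23322 genes in nearness to Aldh1a1.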

How the data were processed

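Kidney RNA of 3 MRL and 3 LPR mice was hybridised to 6 single-colour arrays of 1 slide, without pooling. The deposited intensities came from Agilent Feature Extraction 12.0.3.1 (per the labels), with which the authors subtracted background and detrended each array. The authors also deposited a ratio of each intensity to the 75th percentile of its array, used as an alternative. The probes were placed on mm9 per the file headers. The labels name a column kit for RNA and the methods name TRIzol.

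Here control spots and outlier spots (73 to 90 of 59305 per array) were removed. Log2 intensities were reduced by the 75th percentile of their array and averaged over the spots of a probe. Probes well above background on at least 3 of 6 arrays entered limma 3.58.1 (R 4.3.3). P-values were adjusted by Benjamini-Hochberg across the 39924 probes, at a threshold of 0.05. Each gene is represented by its brightest tested probe over the 6 arrays. A probe well above background in no mouse of a group got a bound, its mean in the other group against the lowest signal well above background on each array. Nothing states whether the mice were littermates, and the number of arrays limits the precision.

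The genes and lists were chosen with earlier results of these data known. All 9 genes were named, and from each list the called genes, at most 4 in each direction, with the receptors and Cyp26 enzymes whatever their change. Genes added as examples of values that did not pass (Rdh10, Dhrs3, Adh1 and Aldh8a1) were chosen after their values were seen. Promoters were aligned with Biopython 1.88. The steps were tested on simulated data. Alternatives were normexp with an offset of 50, quantile and median scaling, a percentile over detected probes, the deposited ratio, filters, a floor, kept outlier spots, an intensity trend, slide column, slide row or replicate number as a block, the mean of a gene's probes, the methods' test, and leaving out each mouse.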

Additional observations from a re-analysis of the deposited data

How the results depend on the processing

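Over 22 alternatives, the change ran from -1.62 to -1.14 in Aldh1a1 and from -2.21 to -1.91 in Aldh1a7. Both genes were chosen for their fall and their groups did not overlap, so leaving out a mouse could not turn the sign. Aldh1a2 kept its call in 13 of the 22. The count of genes described here that rose, 1 as reported, was 2 with normexp, quantile normalization, an intensity trend or the methods' test unadjusted, and 0 with no filter, the slide column, the slide row, the replicate block or the methods' test after Benjamini-Hochberg adjustment. Leaving out a mouse gave 0 to 1. Of the pathway genes, 5 fell as reported. That count was 2 with no filter, the slide row or the replicate block, 3 with the slide column or the adjusted methods' test, 11 with the unadjusted methods' test and 2 to 4 with a mouse left out. Of the pathway genes, 8 rose as reported, and 3 with no filter or the slide column, 4 with the slide row or the replicate block, 2 with the adjusted methods' test and 3 to 5 with a mouse left out. Among the other aldehyde dehydrogenases, 2 fell as reported, 1 with no filter, the replicate block or the adjusted methods' test, 0 with the slide column or row, 5 with the unadjusted methods' test and 0 to 2 with a mouse left out. The mean of a gene's probes raised their count of rises from 1 to 2.

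Over all probes, 2423 were lower and 2610 higher. The lower count was 4542 with normexp, 1086 with no filter, 1007 with the slide column, 456 with the slide row, 1107 with the replicate block, 1584 with the mean of a gene's probes, 7104 and 1346 with the methods' test before and after adjustment, and 749 to 2270 with a mouse left out. The higher count was 1469 with the slide row, 1732 with the adjusted methods' test and 1968 to 2378 with a mouse left out. The lower share of calls, 48.1%, was 64.2% with normexp and 40.0% with a percentile over detected probes. With the median change of all probes removed, a scale added after seeing the data, it was 21.9%, with 871 lower probes, 3 lower pathway genes, 1 lower aldehyde dehydrogenase and 2 rises among the genes described here. The cause of these moves was not tested.

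The slide row as a block leaves LPR mouse 1 alone against the MRL mice. Signs turned in that comparison for the dimmer Aldh1a3 probe (0.32), the second Rarb probe (0.026), Stra6 (0.35), Rxra (-0.092) and Rxrb (-0.029). With the mean of a gene's probes they turned for Rarg (-0.15) and Rxra (-0.20). With a mouse left out, the dimmer Aldh1a3 probe ran from -0.89 to 0.10 (without LPR mouse 3), Stra6 from -0.60 to 0.33 (without LPR mouse 2) and Rxra from -0.084 (without LPR mouse 2) to 0.078. None of these had passed the test. The replicate numbers were checked for pairing, and the deviations of same-numbered mice correlated at 0.12, 0.02 and 0.01. With 3 mice per group, these values cannot decide whether same-numbered mice were paired. With the slide column, the slide row or the replicate block, Ttr, Stra6l, Lrp2, Bco2, Rarres2 and Aldh5a1 each lost their call. Rbp3 lost it with the slide row (0.59), Ret with the slide column (0.75), and Aldh1l1 with either slide position. Dim probes limit Crabp1, Cyp26a1, Cyp26c1 and Ret.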
